A study of Homo sapiens with 4 samples.

Results

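The cardiac myosin loci comprise the genes of the heavy chains MYH6, MYH7 and MYH7B and of the light chains MYL2, MYL3, MYL4 and MYL7. Accessible regions (peaks) were counted to a locus when the deposited symbol named that gene, or when its RefSeq body on GRCh38 was the nearest protein-coding gene within 100000 bp. This gave 25 of 60875 peaks, with 10 at the atrial isoform genes (MYH6, MYL4, MYL7), 13 at the ventricular isoform genes (MYH7, MYL2, MYL3) and 2 at MYH7B. All 7 genes had at least 1 peak. The farthest member peak lay 45610 bp from its gene, and no peak nearest to one of these genes lay beyond the distance limit. Open chromatin had been mapped by ATAC-seq, an assay in which Tn5 transposase cuts accessible DNA and tags it with adapters, in 2 libraries of high and 2 libraries of low efficiency. Both groups were unmodified (WT) cells of the human iPSC line WTC11 (induced pluripotent stem cells, an established line), taken on day 6 of differentiation into cardiac progenitor cells; high and low refer to the purity of cardiomyocytes that the differentiation later reached. All libraries come from a single cell line, and the labels do not say what made a differentiation efficient or inefficient.

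A sarcomeric myosin is a motor built from a pair of heavy chains, each holding an essential and a regulatory light chain. In human heart, MYH6 (alpha heavy chain), MYL4 (essential light chain) and MYL7 (regulatory light chain) mark atrial muscle, while MYH7 (beta heavy chain), MYL3 (essential) and MYL2 (regulatory) mark ventricular muscle. Early heart muscle cells express atrial and ventricular isoforms together, with MYL7 and MYL4 among the early ones and MYL2 a later one. MYH7B is an ancient striated muscle heavy chain whose gene carries a microRNA.

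Values for single libraries were not analysed here. Each peak has a mean normalized count over all libraries, a log2 fold change and its standard error (SE). Replicate scatter enters through the SE alone, so a peak's own scatter was not seen, and library depths are unknown. The deposited Up mark goes with negative fold changes and the Down mark with positive ones. The labels and the table do not say which of the high and low groups is the numerator, so each difference is given as Up side (negative) or Down side (positive), without a link to either group. In bulk cells, a smaller share of cells of a type and less open chromatin per cell cannot be told apart.

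Of the 25 cardiac myosin peaks, 4 changed at an adjusted p under 0.05, all on the Up side: 1 beside MYH7, 2 inside MYL4 and 1 at the start of MYL7. None changed on the Down side. These are 16% of the member peaks on the Up side, beside 2.36% of all peaks; on the Down side 3.64% of all peaks changed. At the atrial genes 3 of 10 peaks changed, at the ventricular genes 1 of 13, and at MYH7B 0 of 2. The median log2 fold change was -0.39 over the 25 peaks, against 0.0015 over all peaks, and 17 of the 25 values were negative. The 4 changed peaks spanned adjusted p-values up to 0.0142, and the nearest value among the others was 0.126. The authors' marking, which needs an unadjusted p under 0.05 and a log2 fold change of size 1 or more, held 6 member peaks as Up and 1 as Down, where 4.86% and 4.98% of all peaks are so marked. By deposited symbol alone the members numbered 8 peaks, of which 2 changed.

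**Figure D1:**
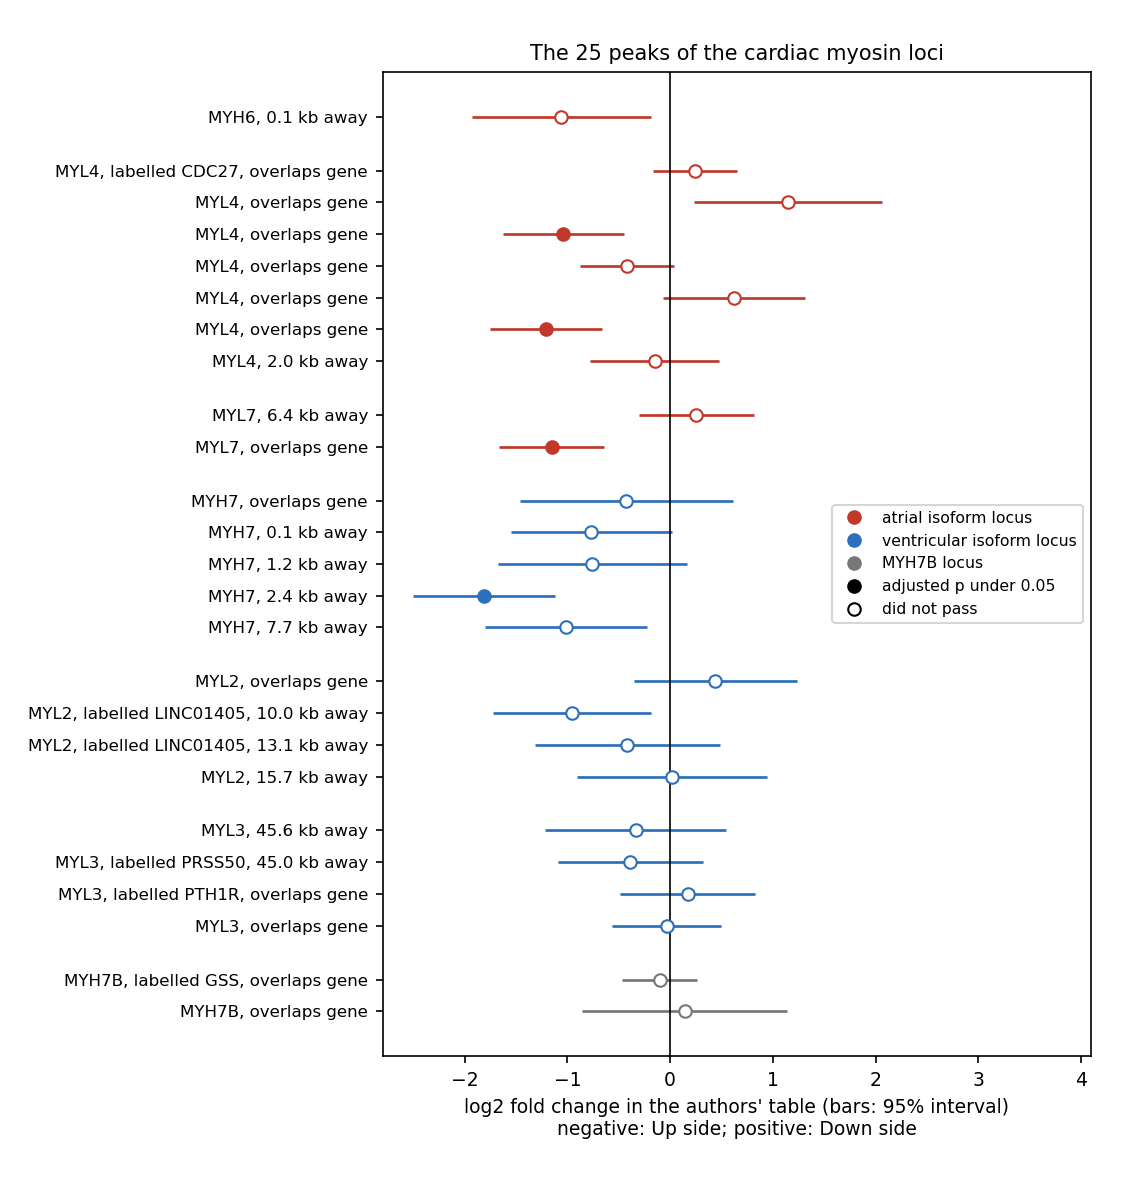
Log2 fold change (horizontal axis, negative for the Up side) of each of the 25 peaks of the cardiac myosin loci, grouped by gene, with 95% Wald intervals as bars; filled points had an adjusted p under 0.05. The filled points are at MYL4 (2 peaks), MYL7 and MYH7, and all lie left of 0.

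Changed peaks of endoderm markers, mostly at FOXA2, lay on the same side, whereas those of cardiac progenitor markers lay on both sides. Around SOX17 and FOXA2, transcription factor genes of endoderm, 8 of 17 peaks changed, all on the Up side. Log2 fold changes over the 17 peaks ran between -1.97 and 0.46, with a median of -1.29. The changed peaks were 7 of 11 at FOXA2, up to 89689 bp from that gene, and 1 of 6 at SOX17. Together they make 47.1% of the endoderm peaks, beside 2.36% of all peaks on the Up side. Of 65 peaks at 9 cardiac progenitor marker genes, 5 changed. Towards Up went 3 of them (4.62%, beside 2.36% of all peaks) and towards Down 2 (3.08%, near 3.64%). In the authors' deposited table the Up-side log2 fold changes were -1.61 at GATA4, -0.93 at PDGFRA and -0.92 at NKX2-5. On the Down side they were 2.22 at TBX5 and 0.89 at GATA6. Of 16 peaks at 3 endothelial marker genes 1 changed on each side (6.25%), at CDH5 towards Up and at TEK towards Down. Of the cardiomyocyte markers that are not myosin genes, TNNT2 (cardiac troponin T) and ACTN2 (sarcomeric alpha-actinin), 0 of 9 peaks had an adjusted p under 0.05, with an unadjusted p under 0.05 in 1 negative and 0 positive peaks and a median log2 fold change of -0.13. Of 8 peaks at 3 pluripotency genes, 1 changed, on the Down side (12.5%, beside 3.64% of all peaks). This peak lies inside LIN28B, an RNA-binding protein gene. It stood in the authors' deposited table at a log2 fold change of 1.38 ± 0.31 (SE, adjusted p = 6.80e-04). No peak of POU5F1 or NANOG changed, and 5 of the 8 values were negative. None of 11 peaks at ACTA2, TAGLN and COL1A1, markers of smooth muscle and fibroblasts, changed on the Up or the Down side at an adjusted p under 0.05, with an unadjusted p under 0.05 in 0 negative and 2 positive peaks. Every marker gene examined had a peak, the pluripotency genes included, so the presence of peaks alone did not separate these cell types. The part of endoderm cells in the myosin result was not tested.

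MYL7 encodes the atrial regulatory light chain and is among the earliest markers of heart muscle differentiation. Its start lies inside a peak of 512 bp (chromosome 7, 44141194 to 44141706) with a mean normalized count of 134 in the authors' deposited table, at percentile 85.2 of all peaks. In the authors' deposited table this peak stood at -1.15 ± 0.26 (SE) on the log2 scale, a 2.22-fold difference on the Up side (adjusted p = 7.27e-04). Its 95% Wald interval ran from -1.66 to -0.64. The other peak of the locus, 6445 bp away on the far side of the gene, stood in the authors' deposited table at 0.25 ± 0.29 (SE, adjusted p = 0.786). The intervals of the start peak and of this peak (-0.31 to 0.81) did not overlap, although the difference between them was not tested.

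The 250 bases before the RefSeq start of MYL7 (GRCh38.p14, chr7:44141333-44141582, minus strand) lie wholly within the changed peak and are shown for that reason, with matches to the searched motifs in capitals.
MYL7: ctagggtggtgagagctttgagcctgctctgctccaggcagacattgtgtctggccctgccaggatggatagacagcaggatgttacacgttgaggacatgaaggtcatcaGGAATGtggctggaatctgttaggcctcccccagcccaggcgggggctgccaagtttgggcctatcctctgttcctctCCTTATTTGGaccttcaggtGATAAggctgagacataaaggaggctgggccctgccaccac
Searched for on both strands were GATAA, the core read by the GATA family of zinc finger factors. AAGTG, which is read by homeodomain factors of the NKX2 family, was searched too. So were GGAATG, read by TEAD factors of the Hippo pathway, and the TATA box as TATAAA, along with the CArG box of serum response factor and the MEF2 box. In the MYL7 window the CArG box CCTTATTTGG lies 61 to 52 bases before the start, GATAA 41 to 37 bases before it and GGAATG 139 to 134 bases before it, with no overlap between them. Of 34943 RefSeq promoter windows of the same length, 1.16% hold a CArG box, 20.5% GATAA and 11.9% GGAATG. These matches describe the letters of the window and are not evidence of binding.

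Of the 16 peaks at or around MYL7 within 100 kb, 14 belonged to other genes. Of these 14, 2 changed, both on the Up side (14.3%, beside 2.36% of all peaks). They are named after their values were seen: in the authors' deposited table a peak labelled PGAM2, the gene of the muscle phosphoglycerate mutase, has a log2 fold change of -0.95 ± 0.29 (SE, adjusted p = 0.0255), and a peak labelled LINC00957 has -1.03 ± 0.21 (SE, adjusted p = 1.22e-04). The change at the MYL7 start was therefore not the only one on the Up side in its neighbourhood.

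MYL4 encodes the atrial essential light chain, which is also present in the fetal ventricle and in embryonic skeletal muscle. Its locus held 7 peaks, the most of any member, and they did not share a side: 4 values were negative and 3 positive. Inside the gene body, the peak at chromosome 17, 47218991 to 47219486 (mean normalized count 133) stood in the authors' deposited table at -1.21 ± 0.28 (SE, 2.31-fold, adjusted p = 0.00101). A further peak inside the gene, at 47204709 to 47205163 (mean normalized count 98.3), stood in the authors' deposited table at -1.04 ± 0.30 (SE, 2.05-fold, adjusted p = 0.0142). These are the changed peaks of the locus, and neither carries a symbol in the deposited table.

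Between and beside the changed MYL4 peaks lay peaks that did not pass. The peak carrying the MYL4 symbol (47197932 to 47198225, mean normalized count 31.8) stood on the opposite side in the authors' deposited table, at 1.15 ± 0.47 (SE, adjusted p = 0.139); its 95% interval, from 0.23 to 2.06, did not overlap those of the changed peaks (-1.75 to -0.66 and -1.62 to -0.45). With its low count, this peak would have needed an absolute log2 fold change of 1.38 to pass. Between the changed peaks stood the peak at 47208772, the highest inside the gene with a mean normalized count of 179, at -0.42 ± 0.23 (SE, adjusted p = 0.374), and the peak at 47210167, at 0.62 ± 0.35 (SE, adjusted p = 0.397), values from the authors' deposited table. The peak with the highest mean count of the locus, 353, spans the upstream end of MYL4 and the upstream end of CDC27, a subunit gene of the anaphase-promoting complex, and carries the CDC27 symbol. It stood in the authors' deposited table at 0.24 ± 0.21 (SE, adjusted p = 0.679), with an interval from -0.17 to 0.66. A peak 2024 bp beyond the downstream end of MYL4 stood in the authors' deposited table at -0.15 ± 0.32 (SE, adjusted p = 0.915). None of the 4 peaks of other genes within 100 kb had an adjusted or an unadjusted p under 0.05 in the authors' deposited table, with log2 fold changes between -0.17 and 0.30.

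MYH6 and MYH7 encode the alpha and beta heavy chains and stand head to tail, 4466 bp apart, on chromosome 14. All 6 peaks of the pair had negative fold changes, with a median of -0.89, and 1 of them changed. It lies 2441 bp beyond the MYH7 body on its upstream side, away from MYH6 (23438101 to 23438573), has a mean normalized count of 77.5, the highest of the 6, and stood in the authors' deposited table at -1.81 ± 0.35 (SE, 3.50-fold, adjusted p = 4.76e-05). Its 95% interval ran from -2.50 to -1.12, and its p-value ranked 351 among 60875 peaks. This was the largest absolute fold change among the 25 member peaks.

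The other 4 MYH7 peaks lay on the same side of 0 without passing. The peak 149 bp from the upstream end of the gene body, which carries the MYH7 symbol, stood in the authors' deposited table at -0.77 ± 0.40 (SE, adjusted p = 0.326). A peak 1207 bp away, also with the symbol, stood in the authors' deposited table at -0.76 ± 0.47 (SE, adjusted p = 0.459). The intervals of both reached past 0, and both overlapped that of the changed peak. A peak 7748 bp away stood in the authors' deposited table at -1.01 ± 0.40 (SE, adjusted p = 0.126). The only peak inside the MYH7 body had a mean normalized count of 24.2 and stood in the authors' deposited table at -0.43 ± 0.53 (SE, adjusted p = 0.816). It lay 13101 bp from MHRT, a cardiac long noncoding RNA gene inside MYH7, which no peak overlapped.

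MYH6 had a single peak, 67 bp upstream of its start (23408340 to 23408705), in the gap between both genes. With a mean normalized count of 39.6 it stood in the authors' deposited table at -1.06 ± 0.45 (SE, 2.08-fold, adjusted p = 0.161). Its interval ran from -1.93 to -0.19, and with this SE an absolute log2 fold change of 1.32 would have been needed to pass. The unadjusted p was 0.0174, so the peak carries the authors' Up mark without passing the adjusted threshold. Of the 250 bases before the MYH6 start (GRCh38.p14, chr14:23408274-23408523, minus strand), 184 lie in this peak; they are shown beside those of MYL7 as the other atrial start with a peak.
MYH6: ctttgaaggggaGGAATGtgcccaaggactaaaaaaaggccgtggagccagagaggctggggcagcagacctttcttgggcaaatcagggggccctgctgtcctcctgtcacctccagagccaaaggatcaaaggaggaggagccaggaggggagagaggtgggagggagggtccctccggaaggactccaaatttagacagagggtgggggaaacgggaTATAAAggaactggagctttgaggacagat
Capitals mark GGAATG, 238 to 233 bases before the start and inside the peak, and TATAAA, 30 to 25 bases before the start and between the start and the peak. TATAAA occurs in 10.8% of the promoter windows. Neither the MYL7 nor the MYH6 window holds AAGTG (37.6% of windows) or a MEF2 box (2.81%), which says only that these letters are absent there.

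Around the MYH6 and MYH7 pair, 14 peaks of other genes lay within 100 kb and 0 of them had an adjusted p under 0.05, with an unadjusted p under 0.05 in 2 peaks with negative and 1 with positive values. Their log2 fold changes ran from -0.98 to 0.72 with a median of -0.11. The low end belonged to a peak beside CMTM5, on the MYH6 side, which the authors' deposited table puts at -0.98 ± 0.40 (SE, adjusted p = 0.143). The high end belonged to the next peak beyond MYH7, nearest to NGDN, which the authors' deposited table puts at 0.72 ± 0.29 (SE, adjusted p = 0.135). The run of negative values ended between the last MYH7 peak and this one; on the other side it extended past MYH6 through the peaks of CMTM5, EFS, SLC22A17 and PABPN1 and ended before those labelled BCL2L2.

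**Figure D2:**
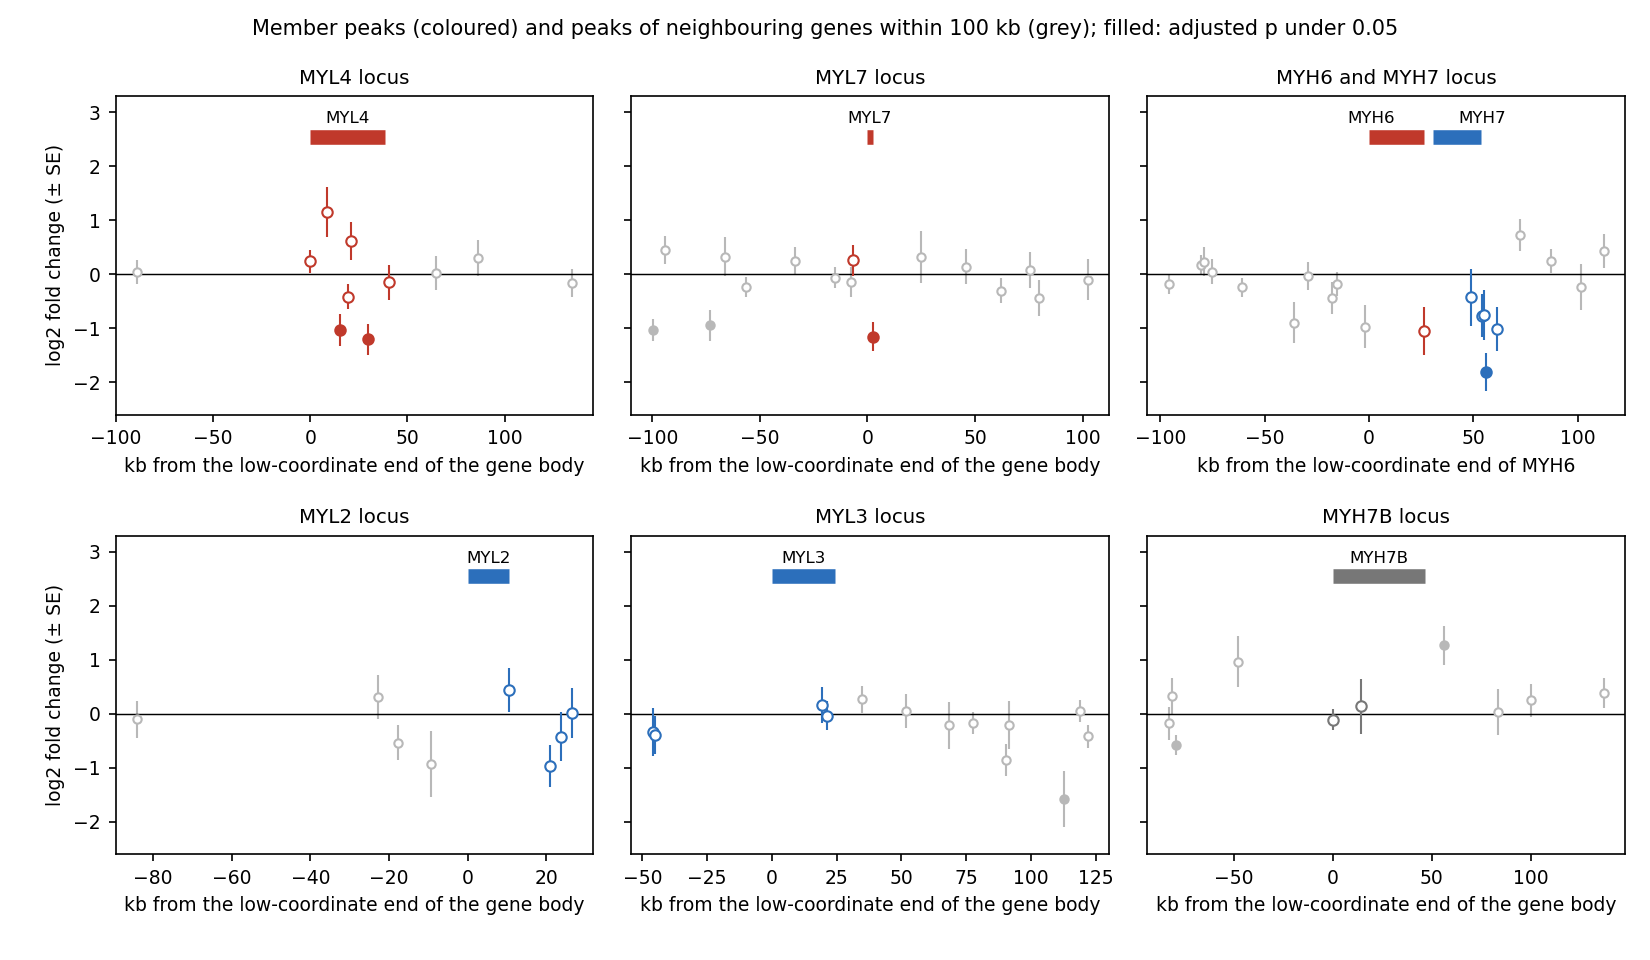
Log2 fold change (vertical axis, bars ± SE) of peaks against their distance in kb from the low-coordinate end of each gene body (thick bars). Member peaks are red (atrial), blue (ventricular) or dark grey (MYH7B), peaks of other genes within 100 kb are light grey, and filled points had an adjusted p under 0.05; the 6 peaks of MYH6 and MYH7 all lie below 0, whereas those of MYL4 lie on both sides.

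The heavy chain genes each host a microRNA that is known from heart. The mature strands, shown for their seed (bases 2 to 8, in capitals), are from RefSeq (GRCh38.p14).
miR-208a-3p, inside MYH6: aUAAGACGagcaaaaagcuugu
miR-208b-3p, inside MYH7: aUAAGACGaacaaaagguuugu
miR-499a-5p, inside MYH7B: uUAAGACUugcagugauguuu
The first pair share the seed UAAGACG, and miR-499a-5p has UAAGACU. No peak overlapped them: the nearest lay 8377 bp from miR-208a-3p, 9292 bp from miR-208b-3p and 19994 bp from miR-499a-5p. Accessibility at the microRNAs themselves was thus not represented among the peaks.

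MYL2, the ventricular regulatory light chain, had 4 peaks and none passed (adjusted p 0.144 to 0.995 in the authors' deposited table), with an unadjusted p under 0.05 in 1. The peak with the MYL2 symbol spans the upstream end of the gene body (chromosome 12, 110921246 to 110921649) at a mean normalized count of 42.6. It stood in the authors' deposited table at 0.44 ± 0.40 (SE, adjusted p = 0.707), with an interval from -0.35 to 1.23. The estimate was thus positive where those of all MYH7 peaks were negative. Its interval nevertheless overlapped those of all MYH7 peaks except the changed one.

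The other 3 MYL2 peaks lie 10018 to 15678 bp away around VHRT, a noncoding RNA gene that RefSeq also lists as LINC01405. The peak nearest to MYL2 of these stood in the authors' deposited table at -0.96 ± 0.39 (SE, adjusted p = 0.144), with an interval from -1.73 to -0.19. The next, also labelled LINC01405, stood in the authors' deposited table at -0.42 ± 0.46 (SE, adjusted p = 0.779). The peak inside the VHRT body stood in the authors' deposited table at 0.017 ± 0.47 (SE, adjusted p = 0.995). None of the 4 peaks of CCDC63 on the other side of MYL2 had an adjusted or an unadjusted p under 0.05 in the authors' deposited table.

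MYL3, the ventricular essential light chain, had 4 peaks by the distance rule, none of them with its symbol and none that passed (adjusted p 0.710 to 0.981 in the authors' deposited table; 0 with an unadjusted p under 0.05). The peak at chromosome 3, 46878664 to 46879246, with the highest mean normalized count of the locus (119), overlaps both MYL3 and PTH1R, the parathyroid hormone receptor gene. It stood in the authors' deposited table at -0.033 ± 0.27 (SE, adjusted p = 0.981), and its interval of -0.56 to 0.50 leaves out a change of 1 log2 unit. Its neighbour, labelled PTH1R and 508 bp from that gene, stood in the authors' deposited table at 0.17 ± 0.34 (SE, adjusted p = 0.903). The remaining peaks lay 44991 and 45610 bp from MYL3, and in the authors' deposited table the nearer has -0.39 ± 0.36 (SE, adjusted p = 0.710) and the farther -0.33 ± 0.45 (SE, adjusted p = 0.837). The peak at 44991 bp carries the PRSS50 symbol, although RefSeq places PRSS50 94626 bp away.

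RefSeq gives MYL3 a pair of starts, and no peak overlapped the 250 bases before either. The nearest peak lay 2936 bp from the start at 46882182 and 15155 bp from the start at 46861684. The window of the second of these (GRCh38.p14, chr3:46861685-46861934, minus strand) is shown as the ventricular start without a peak.
MYL3: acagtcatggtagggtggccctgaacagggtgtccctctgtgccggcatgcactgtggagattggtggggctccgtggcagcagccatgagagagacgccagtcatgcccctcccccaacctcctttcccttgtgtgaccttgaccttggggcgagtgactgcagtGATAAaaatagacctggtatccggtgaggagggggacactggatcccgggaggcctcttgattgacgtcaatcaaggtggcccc
It holds GATAA, in capitals, 84 to 80 bases before the start, and no match to the other searched motifs. The 4 peaks counted to MYL3 are thus not peaks of a MYL3 start. Of 9 peaks of other genes within 100 kb of MYL3, 1 changed, on the Up side (11.1%, beside 2.36% of all peaks). This peak, in CCDC12 and named after its value was seen, stood in the authors' deposited table at -1.57 ± 0.52 (SE, adjusted p = 0.0471).

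MYH7B had 2 peaks, and neither passed (0 with an unadjusted p under 0.05). The peak carrying its symbol, inside the gene (chromosome 20, 34970138 to 34970414), had a mean normalized count of 25.4 and stood in the authors' deposited table at 0.14 ± 0.51 (SE, adjusted p = 0.955). Its interval, from -0.85 to 1.14, was wide on both sides of 0. The other peak spans the overlapping upstream ends of MYH7B and GSS, the glutathione synthetase gene, and carries the GSS symbol. At a mean normalized count of 413, the highest of all member peaks, it stood in the authors' deposited table at -0.10 ± 0.19 (SE, adjusted p = 0.894), with an interval from -0.47 to 0.26. Of 8 peaks of other genes within 100 kb of MYH7B, 2 changed, on opposite sides, and they are named after their values were seen. In the authors' deposited table a peak in ACSS2, labelled GGT7, has -0.58 ± 0.18 (SE, adjusted p = 0.0339), and a peak in TRPC4AP has 1.27 ± 0.36 (SE, adjusted p = 0.0131).

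Set side by side, the atrial genes had 3 changed peaks of 10 (30.0%) and the ventricular genes 1 of 13 (7.69%), all on the Up side, against a background of 2.36% on that side. The median was -0.28 over the atrial peaks and -0.42 over the ventricular peaks, an order that depended on the assignment of peaks. With peaks that overlap another protein-coding gene left out, both medians were -0.42, and by deposited symbol alone the order reversed, at -1.06 over the atrial and -0.76 over the ventricular peaks. Negative values made up 6 of 10 atrial and 10 of 13 ventricular peaks. The atrial peaks were also the better measured, with a median mean normalized count of 98.4 against 44.8 and a median SE of 0.29 against 0.40 at the ventricular peaks. All 4 changed peaks had mean counts above the median of all peaks (47.8), where 14 of the 25 member peaks lie. By estimate the strongest change was ventricular (MYH7), and within the ventricular set the MYL2 and MYL3 peaks had medians of -0.20 and -0.18, against -0.77 for MYH7. The difference between atrial and ventricular loci was not tested, since values for single libraries were not analysed; part of the difference in counts of changed peaks cannot be told apart from the difference in SE.

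**Figure D3:**
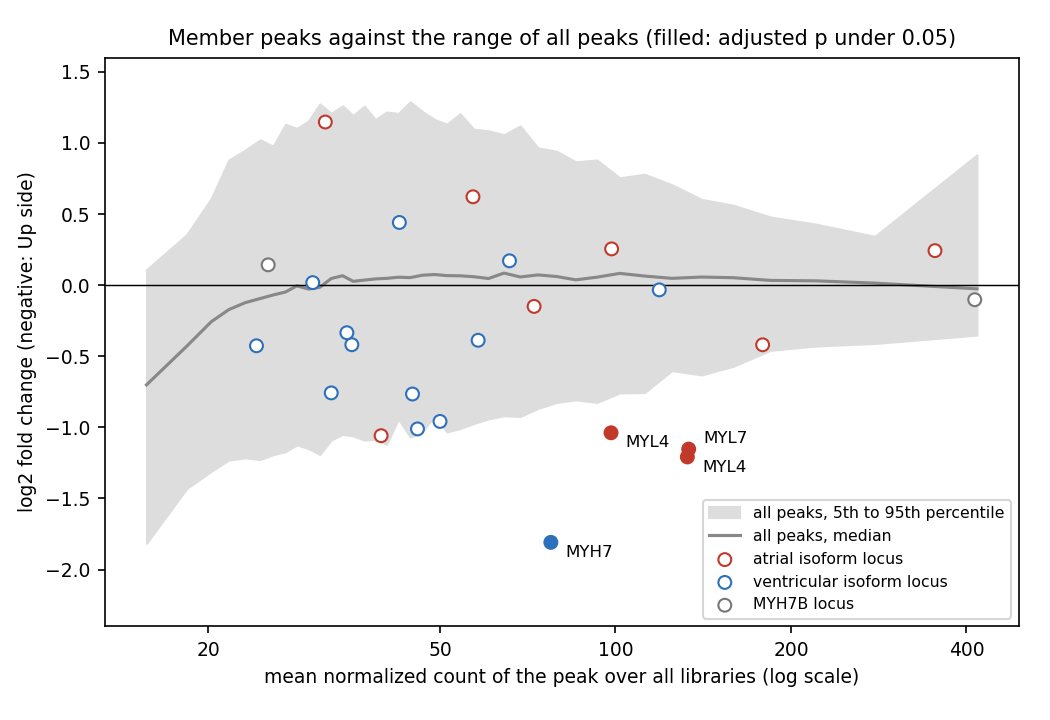
Log2 fold change (vertical axis) against the mean normalized count over all libraries (horizontal axis, log scale) for the member peaks (points; filled had an adjusted p under 0.05), beside the 5th to 95th percentile (light band) and the median (line) of all peaks in 40 bins of mean count. The 4 filled points lie below the band at mean counts between 77.5 and 134.

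Of the 6 member peaks that carried another gene's symbol 0 changed (1 with an unadjusted p under 0.05), with log2 fold changes between -0.96 and 0.24. Among all peaks 6% changed, either way, so 0 of 6 peaks is too small a count to set the peaks with such a label apart. Of the 8 peaks with a member's own symbol 2 changed, and of the 11 with no symbol 2 changed. Of the 13 peaks that overlap a member gene 3 changed, and of the 12 outside the gene bodies 1 changed. Whether these shares differ by label or by position was not tested. Peak width ran from 212 to 928 bp, with a median of 386 bp against 395 bp over all peaks.

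Among other class II myosin chain genes, which encode skeletal, smooth muscle and non-muscle myosins, 16 of 20 genes had a peak. Of their 51 peaks 4 changed on the Up side (7.84%) and 2 towards Down (3.92%), with a median of -0.062; over all peaks the shares are 2.36% Up and 3.64% Down, so the Down share is near that of all peaks. The changed genes were on the Up side MYH9 and MYH10, the non-muscle heavy chains IIA and IIB, and on the Down side MYH9 and MYH8, the perinatal skeletal heavy chain. A peak inside MYH9 stood in the authors' deposited table at -1.20 ± 0.29 (SE, adjusted p = 0.00233), and a peak inside MYH10 stood in the authors' deposited table at -0.91 ± 0.24 (SE, adjusted p = 0.00548). A further peak inside MYH9 stood in the authors' deposited table at -0.70 ± 0.18 (SE, adjusted p = 0.00516). The Down-side peaks are named after their values were seen, and their estimates were larger but less precise. The authors' deposited table gives the MYH8 peak, 7234 bp from the gene, 1.91 ± 0.62 (SE, adjusted p = 0.0372) at a mean normalized count of 19.1. A MYH9 peak, 7993 bp outside that gene, has 1.38 ± 0.38 there (SE, adjusted p = 0.00874). No peak of a light chain gene in this list, MYL1 of fast skeletal muscle and MYL9 of smooth muscle included, had an adjusted p under 0.05.

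All 17 genes of myosin binding proteins, kinases, phosphatase subunits and chaperones had peaks. Of 67 peaks, 7 changed on the Up side (10.4%), at 6 genes (MYLK, MYLK3, MYLK4, PPP1R12B, UNC45B and MYBPHL), and 2 on the Down side (2.99%), at MYLK and MYLK4, with a median of -0.13. The shares among all peaks were 2.36% (Up) and 3.64% (Down), so the Down share of these genes was near that of all peaks. MYLK3, the cardiac myosin light chain kinase that phosphorylates the regulatory light chain, had a peak inside the gene that stood in the authors' deposited table at -1.32 ± 0.27 (SE, 2.49-fold, adjusted p = 1.38e-04). MYLK, the smooth muscle and non-muscle kinase, had a peak inside the gene that stood in the authors' deposited table at 2.67 ± 0.36 (SE, 6.34-fold, adjusted p = 8.38e-10), and it also had a changed peak on the Up side. A peak 83830 bp from MYLK4, a further member of the kinase family, stood in the authors' deposited table at 2.17 ± 0.40 (SE, adjusted p = 1.65e-05). MYBPHL, a myosin binding protein H-like gene expressed in atria, is named after its value was seen; its labelled peak stood in the authors' deposited table at -1.001 ± 0.31 (SE, adjusted p = 0.0258). Peaks of MYBPC3, the cardiac myosin binding protein C gene, and of SMYD1, a methyltransferase of muscle, numbered 1 and 3, and 0 of them had an adjusted p under 0.05.

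**Figure D4:**
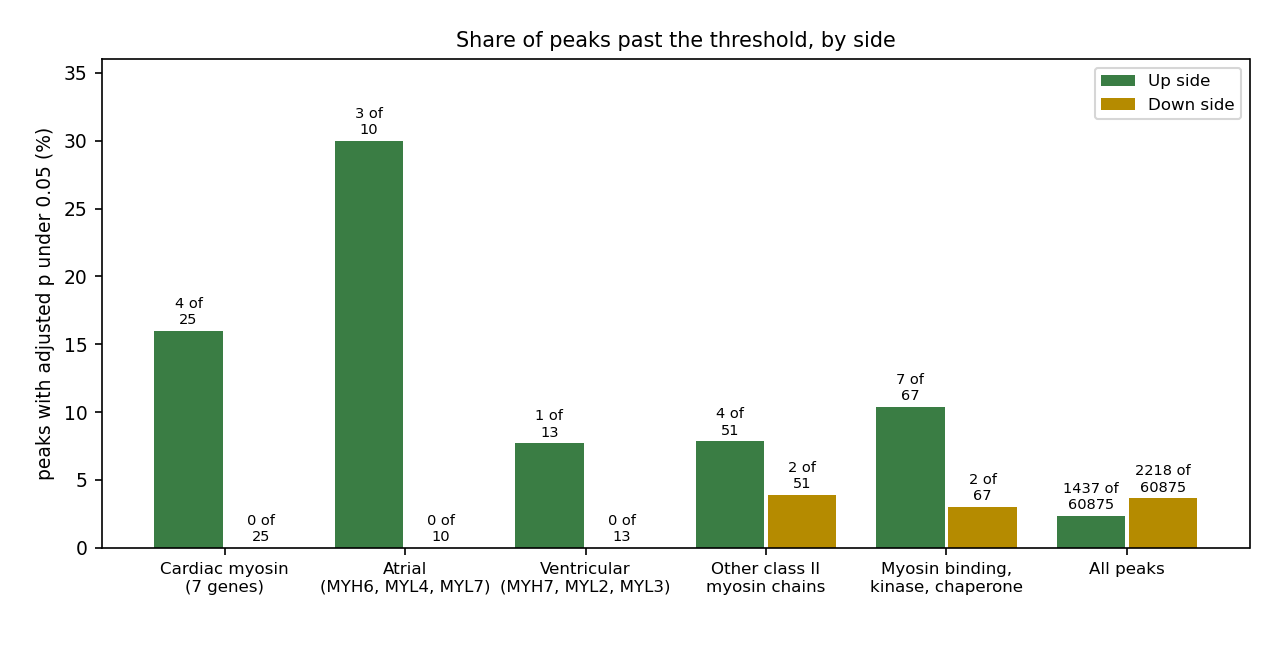
Share of peaks with an adjusted p under 0.05 (vertical axis, percent) on the Up side (green) and the Down side (ochre) for the cardiac myosin genes, their atrial and ventricular sets, 2 lists of related genes and all peaks, with the counts above each bar. The cardiac myosin sets have bars on the Up side only, of 1 to 4 peaks each, whereas the lists of related genes and all peaks have both.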

How the data were processed

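ATAC-seq was done on 50000 to 100000 cells per library with paired-end reads of 42 bp, per the labels' protocols. Per the submitters' processing notes the tools were BWA, MACS2 and DESeq2 and the build GRCh38 (hg38), without versions or settings. Tn5 shifting, duplicate removal and pooling of libraries for peak calling, which could change a peak's count, are steps not given in the sources used here. Per the file headers, the deposited table holds for each peak the authors' mean normalized count (a signal, averaged across the libraries), a log2 fold change with its SE, a Wald score and a p-value, unadjusted and adjusted by Benjamini-Hochberg. The adjusted p-value was recomputed over all 60875 peaks and differed from the deposited one by at most 3.4e-06. No test per peak was added: a change means that the authors' deposited adjusted p is under 0.05. The p-values rest on 2 libraries per group, called biological replicates in the labels. A peak's own spread between replicates could not be examined without values for single libraries.

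Gene bodies, promoter windows and microRNAs came from RefSeq (GRCh38.p14), with promoter sequences for 3 of the 7 members. Coordinates are as deposited; no source says if starts count from 0 or 1, so distances may be off by 1 bp. Intervals are 95% Wald intervals from the deposited SE. Named with values were peaks with a member's symbol, changed peaks and, per gene, the peaks of smallest p and highest mean count. Further member peaks, and some peaks of neighbouring, list and marker genes, were named after their values were seen. The members and lists were chosen with earlier results of these data known. Alternatives were other thresholds, assignment rules and recentring on a running median (2001 peaks of neighbouring mean count). The adjustment, recentring and assignment were tested on simulated data. Work was done in Python 3.11.15 with pandas 2.3.3, numpy 2.4.6 and scipy 1.17.1.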

Additional observations from a re-analysis of the deposited data

How the results depend on the processing

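No paired analysis was possible because the table holds comparisons, not values of single libraries; the block on replicate number, fits without each library and other size factors were therefore not run. By the authors' marking, the 4 changed member peaks became 7 (6 Up), the 3 atrial ones 5 (4 Up) and the 1 ventricular one 2; this rule adds peaks by construction, as it does not adjust p. By deposited symbol alone, with fewer peaks, there were 2 changed of 8, and 1 atrial of 3, and the atrial median moved to -1.06 from -0.28, which reversed its order against the ventricular median (-0.76). Adjusted p limits of 0.01 (3 changed) and 0.1 (4), peaks of at least median mean count, recentred fold changes, a limit of 20000 bp and leaving out peaks that overlap another gene or, added after the data were seen, carry its symbol kept the 3 counts within 1.5 times. Recentring moved member values by -0.076 to 0.12 log2 units. Of the peaks named by symbol, change, smallest p or highest mean count, 15 of 15 kept their side and call. Member peaks named after their values were seen are not in that count. At MYH6, whose single peak has a mean normalized count of 39.6, a change under 1.32 log2 units could not have passed.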
